A study of Oryza sativa with 36 samples.

Results

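The phosphate sensing genes of rice were taken as 8 loci chosen by name, SPX1 to SPX6, PHO2 and PHO1;2, of 33024 transcripts listed over the count tables. For 7 of the 8 loci, 1 transcript each was listed in 6 of 6 tables and was analysed: SPX1 (loc_os06g40120.1, chromosome 6), SPX2 (loc_os02g10780.1, chromosome 2), SPX3 (loc_os10g25310.1, chromosome 10), SPX4 (loc_os03g61200.1, chromosome 3), SPX5 (loc_os03g29250.1, chromosome 3), PHO2 (loc_os05g48390.1, chromosome 5) and PHO1;2 (loc_os02g56510.1, chromosome 2). SPX6 (loc_os07g42330.1, chromosome 7) was not analysed here. Wild-type Nipponbare rice seedlings, 3 weeks old, were grown in hydroponics in a modified Hoagland solution that contained phosphate, so that every group was supplied with phosphate. They received 5 µM zaxinone, an apocarotenoid growth regulator, or a mock treatment, and roots and shoots were collected 2, 6 and 24 h later. Each of the 12 combinations had 3 libraries, 36 in all. The labels do not say how the replicates were grown, while the study describes its replicates as biological and independent.

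Rice cells read their phosphate supply through SPX domain proteins. When phosphate is ample, SPX proteins bind inositol pyrophosphates and hold back PHR2, the transcription factor that switches on phosphate starvation genes, several SPX genes among them. Downstream, the ubiquitin-conjugating enzyme PHO2, whose mRNA is a target of the microRNA miR399, limits phosphate transporters, and PHO1;2 exports phosphate to the xylem for transport from root to shoot.

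The total count per library ranged from 11261992 to 36469854, with a median of 25265203. One library stood apart: zaxinone-treated roots at 24 h, replicate 2, had the lowest total, and its correlation with the other 5 root libraries of that time was between 0.90 and 0.92, against 0.98 to 0.99 among those 5. Summed levels of 4 photosynthesis marker loci lay between 33773 and 56796 CPM (counts scaled to a common library size with TMM factors) in shoots and between 289 and 1858 CPM in roots, and those of 2 root silicon transporter loci between 2945 and 6360 CPM in roots and between 9.60 and 19.0 CPM in shoots, so the tissue labels matched their markers.

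The 7 transcripts differed widely in how many reads stood behind them. SPX4, which holds PHR2 in the cytoplasm, had between 164 and 1065 counts per root library and between 352 and 699 per shoot library. SPX1, a nuclear partner of PHR2, had between 97 and 597 counts in roots and between 138 and 335 in shoots. SPX2, which also binds PHR2 in the nucleus, had between 125 and 334 counts in roots and between 69 and 153 in shoots. SPX3 and SPX5, a pair of closely related SPX genes, were near the limit of detection, and whether they share reads was not tested. SPX3 had between 2 and 13 counts in roots and between 4 and 13 in shoots. SPX5 had between 4 and 52 counts in roots and between 0 and 4 in shoots, with 4 of 18 shoot libraries at 0. PHO2 had between 2522 and 24159 counts in roots and between 1841 and 4704 in shoots, and PHO1;2 between 4982 and 25544 in roots and between 372 and 1307 in shoots. Transcript lengths were not used, so levels were compared for the same transcript between samples and not between transcripts. Whether the counting used strand is not given in the sources used here, and reads of an antisense transcript at the PHO1;2 locus, which is known in rice, could not be told apart from those of PHO1;2.

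**Figure D1:**
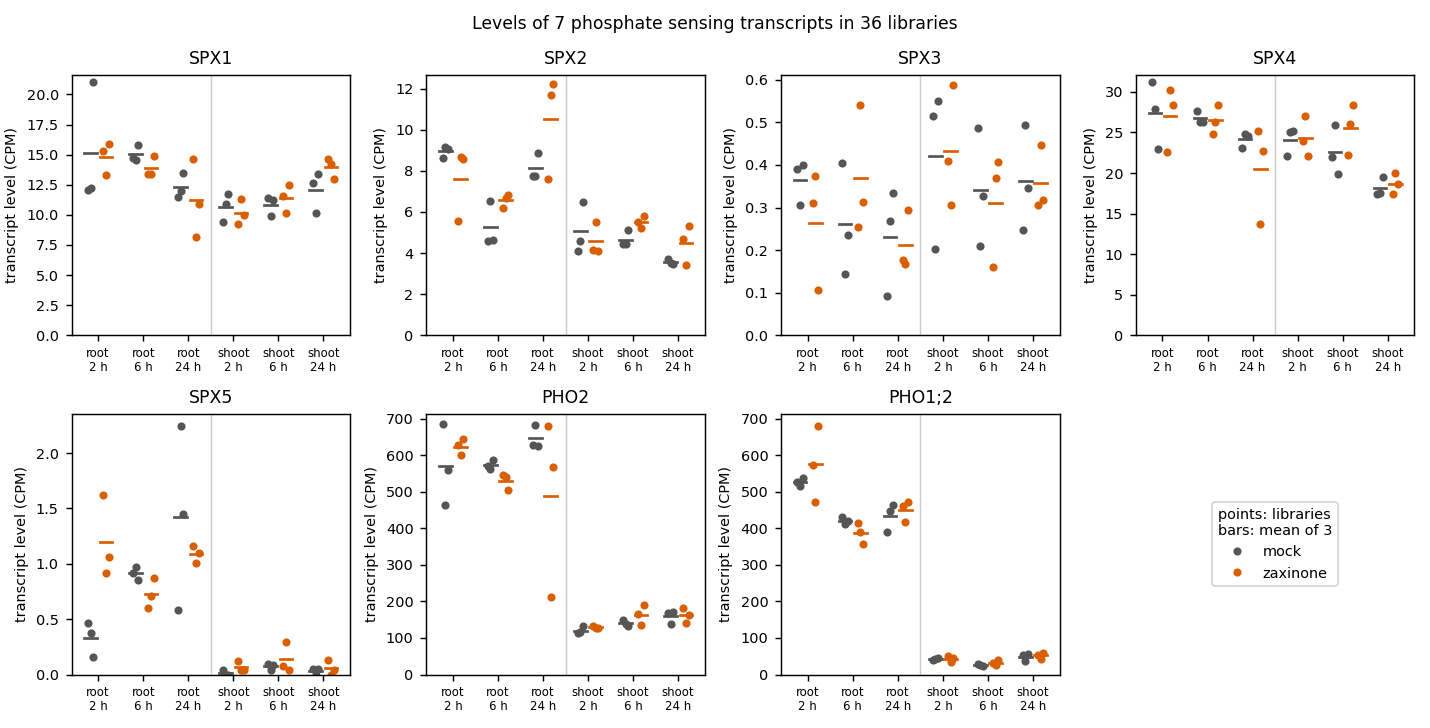
Level in CPM (vertical axes, from 0, a scale for each transcript) of the 7 transcripts in every library by tissue and time (horizontal axes), with mock in grey, zaxinone in orange, and the mean of 3 libraries as a bar. PHO2 and PHO1;2 were higher in all root libraries than in any shoot library, SPX5 was higher in mock roots than in mock shoots at every time, and its 3 mock root libraries at 2 h lay below the 3 zaxinone root libraries.

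Does zaxinone change the transcripts of phosphate sensing? None of the 7 transcripts passed the threshold, an adjusted p under 0.05 in edgeR's quasi-likelihood test over all transcripts, in any tissue or at any time. In roots, 0 of 7 tested members were called at 2 h, where 0.636% of all tested transcripts were called. The counts were 0 of 6 (1.61% of all) at 6 h and 0 of 6 (0.00423% of all) at 24 h. The comparison at 24 h held the library that stood apart, and in simulated data edgeR recovered 3% of 2-fold changes there. In shoots, 0 of 6 were called (0% of all) at 2 h, 0 of 5 (0.00433% of all) at 6 h and 0 of 5 (0% of all) at 24 h. The members not tested fell under the filter on low counts: SPX3 at 6 and 24 h in both tissues, and SPX5 at all 3 times in shoots. DESeq2 called 0 members in each of the 6 comparisons, but its shares over all tested transcripts are not given here. At an unadjusted p under 0.05 in edgeR there was 1 of 7 members in roots at 2 h, where 7.65% of all tested transcripts reached it. In shoots at 6 h there were 2 of 5, where 11.8% of all did. There were 0 in the other comparisons, where between 3.95% and 16.7% of all did.

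The largest fitted difference was that of SPX5 in roots at 2 h. Its counts were 13, 11 and 4 in the mock libraries and 52, 22 and 40 in the zaxinone libraries. The mock libraries alone fell short of the filter on low counts, which SPX5 passed through the zaxinone libraries. Without that filter the log2 fold change was 1.83 (adjusted p = 0.268 in edgeR). In CPM these were 0.462, 0.373 and 0.160 with mock and 1.62, 0.916 and 1.06 with zaxinone, so that the groups did not overlap. The means were 0.332 ± 0.156 CPM and 1.20 ± 0.372 CPM (SD, n = 3 each), and the log2 fold change was 1.82 with a standard error of 0.52 and a 95% interval from 0.65 to 3.0. This missed the threshold in edgeR, with an unadjusted p of 0.00629 and an adjusted p of 0.278, and adjusted p-values over the alternative settings ran from 0.105 to 0.753. Groups without overlap were found for 12.4% of all tested transcripts in that comparison.

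SPX5 did not show this at the later times in roots. At 6 h the libraries had 0.920, 0.972 and 0.850 CPM with mock and 0.603, 0.707 and 0.876 CPM with zaxinone, a log2 fold change of -0.32 (95% interval -0.95 to 0.31). At 24 h they had 0.579, 2.24 and 1.45 CPM with mock and 1.17, 1.01 and 1.10 CPM with zaxinone, a log2 fold change of -0.35 (95% interval -1.56 to 0.85). Tested directly in one edgeR fit over 36 libraries, the zaxinone effect at 6 h was lower than that at 2 h by a log2 difference of -2.15 (95% interval -3.53 to -0.77, adjusted p = 0.282), and that at 24 h by -2.14 (95% interval -3.51 to -0.77, adjusted p = 0.111). Neither passed the threshold. The mock means were 0.332, 0.914 and 1.42 CPM and the zaxinone means 1.20, 0.729 and 1.09 CPM at the successive times. The comparison at 2 h and both differences from it rest on the same 3 mock libraries of 2 h.

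The 5 better covered transcripts gave narrower intervals. For SPX1, SPX2, SPX4, PHO2 and PHO1;2 in roots, the log2 fold changes of zaxinone over mock lay between -0.24 and 0.13 at 2 h, with 95% intervals that reached from -0.75 to 0.49. The 6 h range was -0.11 to 0.32, and no interval went below -0.33 or above 0.71. The widest estimates were those of 24 h, with fold changes from -0.40 to 0.39 and bounds of -1.27 and 1.04. In shoots at 2 h the fold changes spanned -0.14 to 0.11 with outer bounds of -0.58 and 0.30. The 6 h shoots spanned 0.08 to 0.40 with bounds of -0.20 and 0.69, and the 24 h shoots 0.03 to 0.34 with bounds of -0.20 and 0.76. The outermost bounds correspond to 1.68-fold, 1.64-fold and 2.42-fold changes at the successive root times and to 1.49-fold, 1.62-fold and 1.69-fold changes in shoots. SPX3, where it was tested, at 2 h, had wider intervals, from -1.92 to 0.93 in roots and from -0.97 to 1.06 in shoots.

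The export carrier PHO1;2 and the ubiquitin-conjugating enzyme PHO2 were the members with an unadjusted p under 0.05 in shoots at 6 h. PHO1;2 had 27.9, 24.7 and 22.5 CPM in the mock libraries and 30.9, 27.4 and 40.3 CPM in the zaxinone libraries. The groups overlapped in the library with 27.4 CPM, and the log2 fold change was 0.40 ± 0.13 (SE, edgeR's adjusted p = 0.317). That library had the second lowest total count of all, 13229890, and without it the log2 fold change was 0.49 (edgeR's adjusted p = 0.0659). Without zaxinone replicate 3, the library with 40.3 CPM, it was 0.24 (edgeR's adjusted p = 0.796). PHO2 had 148, 138 and 133 CPM with mock and 166, 136 and 191 CPM with zaxinone, also with overlap, and a log2 fold change of 0.23 ± 0.11 (SE, edgeR's adjusted p = 0.418). It was 0.33 without zaxinone replicate 2 and 0.12 without zaxinone replicate 3 (edgeR's adjusted p = 0.0698 and 0.896). All 5 tested members had a positive log2 fold change there, as did 11365 of all 23084 tested transcripts. Their median was 0.23 beside a median of 0.00 over all tested transcripts. The 5 values come from the same libraries, and zaxinone replicate 3 had the highest zaxinone value for each member. The fitted difference of the zaxinone effect on PHO1;2 between roots and shoots at 6 h was -0.55 on the log2 scale and missed the threshold (unadjusted p = 0.0218, adjusted p = 0.717 in edgeR).

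SPX2 and PHO2 gave the other groups without overlap. For SPX2 in shoots at 6 h, the mock libraries had 4.42, 4.42 and 5.11 CPM and the zaxinone libraries 5.50, 5.23 and 5.80 CPM, a log2 fold change of 0.25 (adjusted p = 0.555 in edgeR, and 15.5% of all tested transcripts without overlap). For PHO2 in roots at 6 h, the mock libraries had 572, 562 and 586 CPM and the zaxinone libraries 545, 539 and 504 CPM, a log2 fold change of -0.11 (adjusted p = 0.475 in edgeR, and 21.9% of all without overlap). SPX2 in roots had 4.60, 6.55 and 4.66 CPM with mock and 6.19, 6.69 and 6.82 CPM with zaxinone at 6 h, and 7.77, 7.76 and 8.85 CPM with mock and 7.63, 11.7 and 12.3 CPM with zaxinone at 24 h. The log2 fold changes were 0.32 and 0.39, with adjusted p-values of 0.394 and 0.622 in edgeR. The difference of this effect between 24 h and 2 h was 0.66 (adjusted p = 0.241 in edgeR).

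The value of PHO2 in roots at 24 h turned on the library that stood apart. The mock libraries had 628, 684 and 625 CPM and the zaxinone libraries 680, 212 and 569 CPM, with the value of 212 CPM in that library. The log2 fold change was -0.40 (95% interval -1.27 to 0.47) with it and -0.04 (standard error 0.12) without it, and the adjusted p in edgeR was 0.673 and 0.948. In the same library SPX4 had 13.8 CPM against 25.2 and 22.7 CPM in the other zaxinone replicates, and SPX1 had 8.15 CPM against 14.7 and 10.9 CPM, while PHO1;2 had 418 CPM against 460 and 471 CPM.

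**Figure D2:**
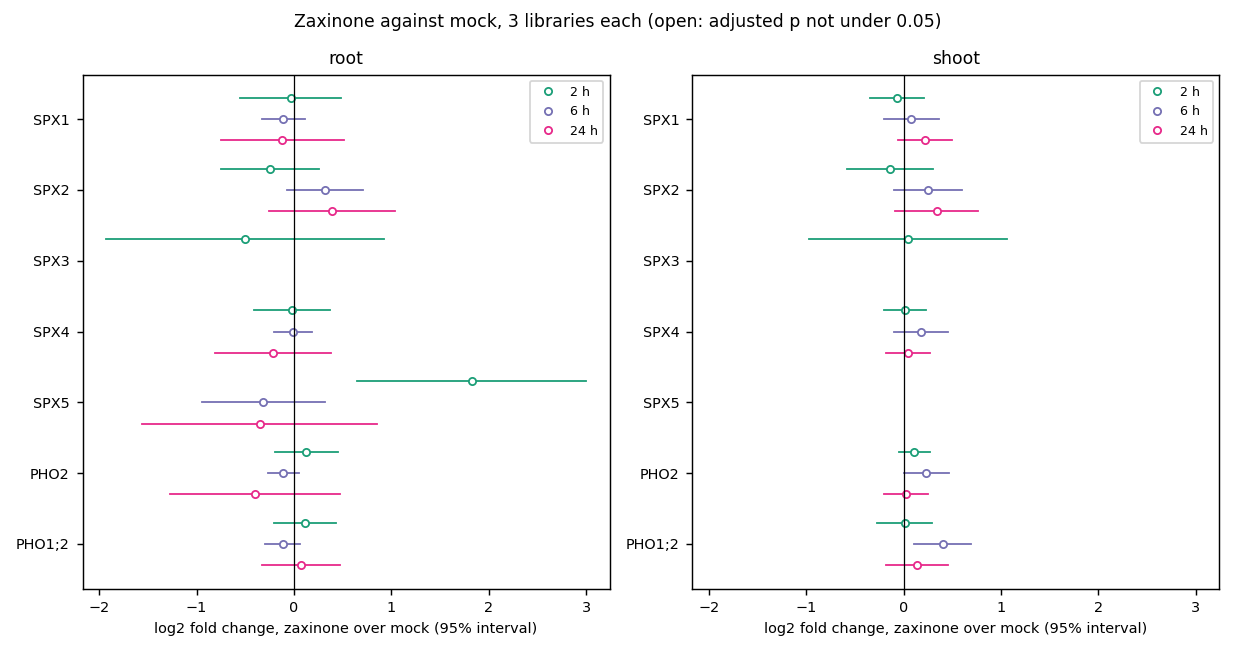
Log2 fold change of zaxinone over mock (horizontal axes) with its 95% interval for each tested member (vertical axes), in roots on the left and shoots on the right, with a colour for each time and open circles for an adjusted p that was not under 0.05. Every circle is open, and the widest departure from 0 is SPX5 in roots at 2 h, at 1.82.

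The effect of zaxinone was also compared between tissues and times for all 7 members. Between roots and shoots, 0 of 7 differed at 2 h, where 0.206% of all tested transcripts did, and the count was 0 of 7 again at 6 h (0.0300% of all) and 24 h (0.611% of all). Within roots, 0 of 7 differed between 6 h and 2 h (0.0937% of all) and 0 of 7 between 24 h and 2 h (1.05% of all). At an unadjusted p under 0.05 in edgeR there were 0, 1 and 0 members in the comparisons of tissues, PHO1;2 being the 1. There were 1 and 2 in the comparisons of times, which were SPX5 in both and SPX2 at 24 h. Of all 26669 tested transcripts, 1560, 1622 and 4031 reached an unadjusted p under 0.05 in the comparisons of tissues. In those of times, 2218 and 4537 did, so these member counts alone do not set the members apart. DESeq2 called 0 members in each of these 5 comparisons, again without its shares over all tested transcripts given here.

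In mock plants PHO1;2, PHO2 and SPX5 were higher in roots at 2, 6 and 24 h, SPX2 at 2 and 24 h, SPX1 at 2 h and SPX4 at 24 h, and no member was called higher in shoots. In all, 5, 3 and 5 of the 7 members were called at the successive times. SPX5 is among them each time and passed the filter on low counts only through its root libraries. These shares are to be read against 72.1%, 68.1% and 69.7% of all tested transcripts that differed between the tissues, so a call alone does not set the members apart. In bulk tissue, a higher level in each cell and a larger share of the cells that express a transcript cannot be told apart.

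PHO1;2 showed the largest tissue difference among the members with ample counts. At 2 h its mock libraries had 526, 516 and 538 CPM in roots and 38.8, 43.3 and 45.5 CPM in shoots, a log2 difference of 3.58 ± 0.15 (SE, adjusted p = 2.07e-13 in edgeR), or 12.0-fold. At 6 h they had 431, 411 and 419 CPM in roots and 27.9, 24.7 and 22.5 CPM in shoots, a log2 difference of 3.98 ± 0.15 (SE), or 15.7-fold. At 24 h they had 390, 446 and 462 CPM in roots and 52.4, 36.2 and 55.3 CPM in shoots, a log2 difference of 3.09 ± 0.15 (SE), or 8.50-fold. Over all 36 libraries the lowest root value, 358 CPM, was far above the highest shoot value, 59.3 CPM.

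PHO2 followed with a difference of similar size at each time. Its mock libraries had 685, 464 and 560 CPM in roots and 113, 115 and 132 CPM in shoots at 2 h, a log2 difference of 2.19 ± 0.13 (SE, adjusted p = 1.83e-11 in edgeR), or 4.58-fold. The difference was 1.94 ± 0.13 at 6 h and 1.93 ± 0.13 at 24 h (SE), or 3.84-fold and 3.81-fold. Even the root library that stood apart, with 212 CPM, was above the highest shoot value of 191 CPM.

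SPX5 was nearly undetected in shoots at this depth. Summed over 3 mock libraries, it had 28 counts in roots and 1 in shoots at 2 h, 81 and 5 at 6 h, and 108 and 2 at 24 h. Scaled by library totals, the ratio of root to shoot was 28.8 (95% exact interval 4.76 to 1178) at 2 h, 14.3 (5.88 to 45.2) at 6 h and 51.3 (13.9 to 429) at 24 h, intervals that cover counting error only. In edgeR the adjusted p-values were 0.00104, 0.000155 and 7.41e-06. SPX5 passed the filter on low counts in that fit through its root libraries only. The calls held in all 11 alternatives at each time, among them that without the filter. SPX3, its close relative, was called at no time. Its levels spanned 0.0914 to 0.541 CPM in roots and 0.161 to 0.588 CPM in shoots, and its log2 differences of root over shoot had 95% intervals of -1.33 to 0.82 (2 h), -1.61 to 0.68 (6 h) and -1.96 to 0.42 (24 h).

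Among the better covered SPX transcripts the tissue differences were smaller. SPX2 had 8.64, 9.17 and 9.07 CPM in mock roots and 4.12, 4.59 and 6.48 CPM in mock shoots at 2 h, a log2 difference of 0.77 ± 0.17 (SE, adjusted p = 0.000632 in edgeR), and 7.77, 7.76 and 8.85 CPM against 3.71, 3.49 and 3.46 CPM at 24 h, a log2 difference of 1.10 ± 0.18 (SE, adjusted p = 2.72e-05 in edgeR). At 6 h its groups overlapped, with 4.60, 6.55 and 4.66 CPM in roots and 4.42, 4.42 and 5.11 CPM in shoots and a 95% interval of the log2 difference from -0.29 to 0.46.

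SPX1 at 2 h had 12.09, 12.2 and 21.0 CPM in mock roots and 9.39, 10.9 and 11.8 CPM in mock shoots. The log2 difference was 0.44 ± 0.18 (SE, adjusted p = 0.0317 in edgeR). It rested on the root library with 21.0 CPM, replicate 3, without which it was 0.16 (adjusted p = 0.344 in edgeR), and the call was also lost without shoot replicate 1 (0.36, adjusted p = 0.120) or shoot replicate 2 (0.45, adjusted p = 0.0602). At 6 h SPX1 gave 0.38 (adjusted p = 0.0667 in edgeR) and at 24 h its 95% interval ran from -0.43 to 0.32.

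SPX4 at 24 h had 23.1, 24.8 and 24.5 CPM in mock roots and 17.4, 17.6 and 19.6 CPM in mock shoots, without overlap (75.8% of all tested transcripts). The log2 difference was 0.32 ± 0.12 (SE, adjusted p = 0.0293 in edgeR). The call was lost in DESeq2 (0.28, adjusted p = 0.0543), in edgeR with size factors from DESeq2 (0.28, adjusted p = 0.0530), and without root replicate 2 (0.29, adjusted p = 0.0761), root replicate 3 (0.29, adjusted p = 0.0826), shoot replicate 1 (0.29, adjusted p = 0.0886) or shoot replicate 2 (0.29, adjusted p = 0.0859). At 2 and 6 h its 95% intervals ran from -0.12 to 0.39 and from -0.11 to 0.41.

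**Figure D3:**
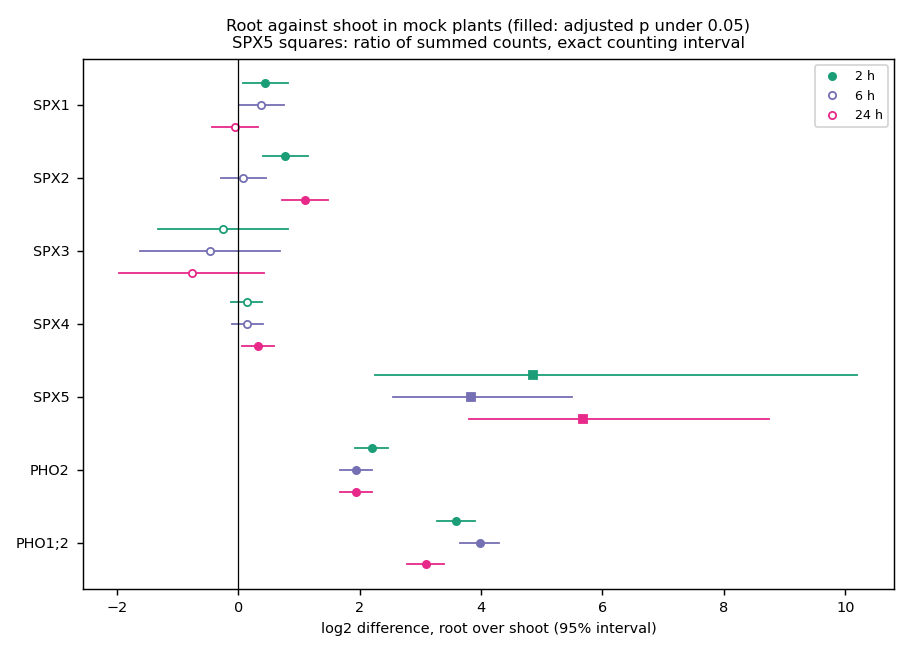
Log2 difference of root over shoot in mock plants (horizontal axis) with its 95% interval for each member (vertical axis), with a colour for each time and filled symbols for an adjusted p under 0.05. SPX5 is drawn as squares from the ratio of summed counts with its exact counting interval. PHO1;2 lies between 3.09 and 3.98 and PHO2 between 1.93 and 2.19, while SPX3 crosses 0 at every time.

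Among mock plants some members also differed between harvests, though the time after application and the clock time of harvest cannot be told apart. In roots, 2 of 7 members were called between 6 h and 2 h, where 29.6% of all tested transcripts were, and 1 of 7 between 24 h and 2 h (27.6% of all). In shoots, 1 of 7 was called between 6 h and 2 h (15.0% of all) and 2 of 7 between 24 h and 2 h (14.1% of all). These comparisons share their 2 h libraries with each other, with the comparisons of tissues and with those of zaxinone at 2 h.

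In mock roots SPX5 rose from a mean of 0.332 ± 0.156 CPM at 2 h to 0.914 ± 0.0616 CPM at 6 h and 1.42 ± 0.832 CPM at 24 h (SD, n = 3 each), and the groups at 6 and 24 h did not overlap with that at 2 h (35.3% and 31.1% of all tested transcripts did not). The log2 differences were 1.43 ± 0.51 (SE, adjusted p = 0.0416 in edgeR) and 2.03 ± 0.50 (SE, adjusted p = 0.00578 in edgeR). The call at 6 h was lost in DESeq2 (adjusted p = 0.0574), without a filter on low counts (adjusted p = 0.0517), and when root replicate 2 or 3 at 2 h (1.54, adjusted p = 0.0528, and 1.10, adjusted p = 0.135) or replicate 1, 2 or 3 at 6 h (1.41, 1.38 and 1.48, adjusted p = 0.0893, 0.0920 and 0.0723) was left out. The call at 24 h held without a filter on low counts and when any 1 of its 6 libraries was left out, with log2 differences between 1.55 and 2.44. In the main fit SPX5 passed that filter through the root libraries of 6 and 24 h, as those of 2 h alone fell short of it.

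SPX2 in mock roots was lower at 6 h than at 2 h, at 5.27 ± 1.11 CPM against 8.96 ± 0.278 CPM (SD, n = 3 each), without overlap (35.3% of all tested transcripts). It fell by 0.77 on the log2 scale (SE 0.17, adjusted p = 0.00286 in edgeR), and the call held in all 12 alternatives, between -0.95 and -0.68. At 24 h it was at 8.13 ± 0.630 CPM, and the 95% interval of the difference from 2 h ran from -0.52 to 0.20. In shoots SPX2 had 5.06 ± 1.25, 4.65 ± 0.396 and 3.56 ± 0.139 CPM at 2, 6 and 24 h, and the difference of -0.49 between 24 h and 2 h missed the threshold (adjusted p = 0.0907 in edgeR).

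PHO1;2 in mock shoots was at 42.5 ± 3.45 CPM at 2 h, 25.0 ± 2.68 CPM at 6 h and 48.0 ± 10.2 CPM at 24 h (SD, n = 3 each). The 3 libraries at 6 h lay below all others of the mock shoots (39.8% of all tested transcripts did not overlap between 6 h and 2 h), and PHO1;2 fell by 0.72 on the log2 scale from 2 h to 6 h (SE 0.14, adjusted p = 0.00140 in edgeR), a call that held in all 12 alternatives. In mock roots it had 527 ± 11.3, 420 ± 10.2 and 433 ± 37.7 CPM (SD, n = 3 each). The root groups at 6 and 24 h did not overlap with that at 2 h, like 35.3% and 31.1% of all tested transcripts, and the log2 differences of -0.33 and -0.30 missed the threshold (adjusted p = 0.0749 and 0.106 in edgeR), and DESeq2 called the first (adjusted p = 0.0390).

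PHO2 and SPX4 moved in opposite directions in mock shoots between 2 h and 24 h. PHO2 had 113, 115 and 132 CPM at 2 h and 169, 138 and 170 CPM at 24 h, a log2 difference of 0.43 ± 0.12 (SE, adjusted p = 0.0243 in edgeR). SPX4 had 22.1, 25.1 and 25.1 CPM at 2 h and 17.4, 17.6 and 19.6 CPM at 24 h, and it fell by 0.38 on the log2 scale (SE 0.12, adjusted p = 0.0464 in edgeR). Neither pair of groups overlapped, as was so for 40.1% of all tested transcripts. The call of SPX4 was lost without a filter on low counts (adjusted p = 0.0581 in edgeR) and whichever of the 6 libraries was left out (adjusted p between 0.0552 and 0.150 in edgeR), and that of PHO2 without replicate 1 or 2 at 2 h (0.39 and 0.40, adjusted p = 0.0996 and 0.0886) or replicate 1 or 3 at 24 h (0.39 and 0.37, adjusted p = 0.0997 and 0.103).

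In mock roots neither SPX4 nor PHO2 was called between times. SPX4 was at 27.4 ± 4.17, 26.7 ± 0.734 and 24.1 ± 0.900 CPM at 2, 6 and 24 h (SD, n = 3 each), and PHO2 had 569 ± 111, 573 ± 12.0 and 646 ± 32.9 CPM. The 95% intervals of their log2 differences from 2 h lay between -0.46 and 0.22 for SPX4 and between -0.24 and 0.42 for PHO2. Without root replicate 3 at 2 h, SPX4 was called at 24 h with a log2 difference of -0.33 (adjusted p = 0.0471 in edgeR).

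**Figure D4:**
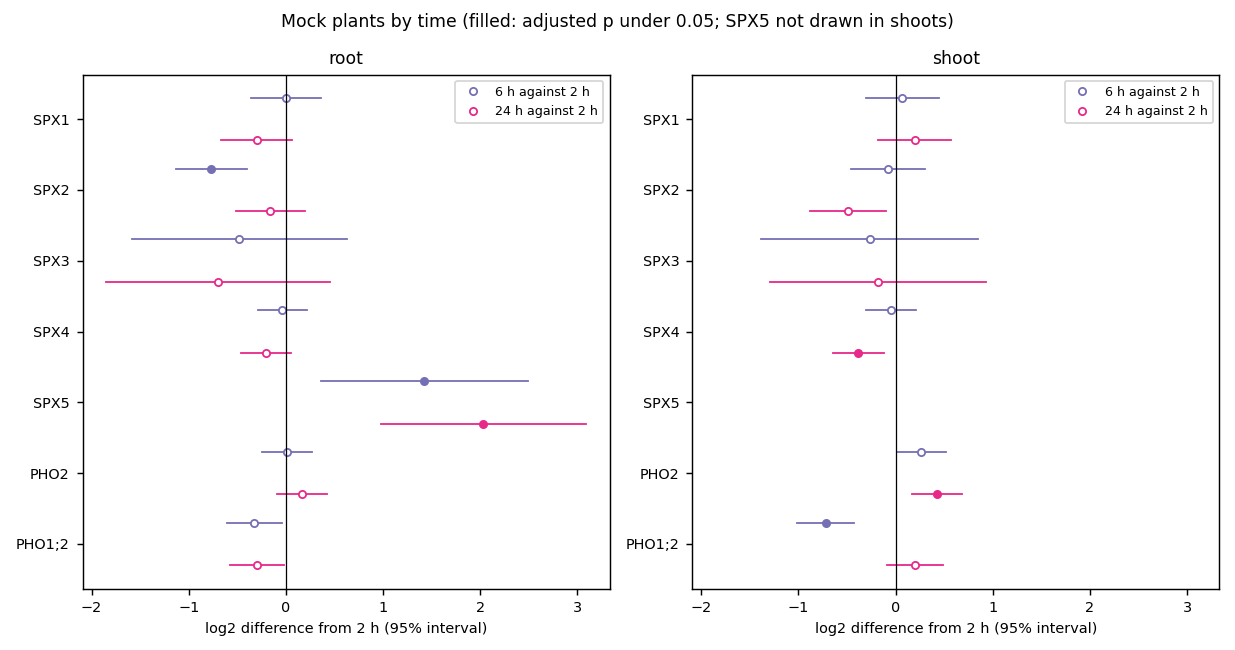
Log2 difference of mock plants at 6 h and 24 h from 2 h (horizontal axes) with its 95% interval for each member (vertical axes), in roots on the left and shoots on the right, with filled circles for an adjusted p under 0.05. SPX5 is not drawn in shoots, where it had at most 5 counts over 3 libraries. SPX5 lies at 1.43 and 2.03 in roots, SPX2 in roots at 6 h at -0.77, and PHO1;2 in shoots at 6 h at -0.72.

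A list of 30 other loci of phosphate regulation, uptake and starvation response, of which 26 were analysed, gave the background of the pathway. With zaxinone, 1 of 19 tested loci was called lower and 0 higher in roots at 6 h, where 1.61% of all tested transcripts were called. None of the loci was called in the other 5 comparisons, which tested 16 to 19 of them. Their median log2 fold changes in roots were 0.02, -0.12 and -0.17 at 2, 6 and 24 h, beside -0.02, -0.11 and -0.17 for the members and -0.01, 0.00 and 0.00 over all tested transcripts. The medians at 24 h include the library that stood apart, in which PHO2, SPX4 and SPX1 were low, and medians without it are not given here. At an unadjusted p under 0.05 in edgeR there were 1 of 19, 4 of 19 and 1 of 18 of these loci in roots. In shoots there were 0 of 18, 3 of 16 and 0 of 18. The shares over all tested transcripts were 7.65%, 16.7% and 8.46% in roots and 4.04%, 11.8% and 3.95% in shoots. Between mock roots and shoots, 10 of 22 were higher and 9 lower in roots at 2 h, 10 higher and 7 lower at 6 h, and 11 higher and 8 lower at 24 h. Of all 26079 tested transcripts, 9707, 8904 and 9452 were higher in roots and 9092, 8865 and 8726 lower at the successive times. All called members were higher in roots. In mock roots 1 of the 22 loci rose and 7 fell from 2 h to 6 h and 5 rose and 2 fell from 2 h to 24 h, and in mock shoots 3 rose and 6 fell, then 3 rose and 1 fell. Over all tested transcripts, 3622 rose and 4106 fell in roots from 2 h to 6 h, and 3346 rose and 3853 fell to 24 h. In shoots 2132 rose and 1786 fell, then 2150 rose and 1539 fell.

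Correlations between members were mostly low. Over 36 libraries, with the mean of each tissue subtracted, the highest Pearson r between 2 members was 0.59, for SPX1 and PHO2, and the lowest was -0.34, for SPX1 and SPX2. Within the 18 root libraries r was 0.75 for SPX4 and PHO2 and 0.55 for SPX1 and PHO2, but both rested on the library that stood apart, without which r was -0.07 and -0.09. In the 18 shoot libraries r was -0.32 for SPX4 and PHO2 and 0.70 for SPX1 and PHO2. These are descriptions over libraries that share tissue, time and treatment.

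The transcripts with the pattern most like each member were sought among 26668 others, by Pearson r of log2(CPM + 1) over 36 libraries after subtraction of the tissue means. They were loc_os06g12390.2 for SPX1 (r = 0.80), loc_os09g01290.2 for SPX2 (r = 0.72), loc_os03g38790.1 for SPX3 (r = 0.51), loc_os06g07540.1 for SPX4 (r = 0.86), loc_os06g22970.1 for SPX5 (r = 0.70), loc_os10g31970.1 for PHO2 (r = 0.92) and loc_os07g44060.1 for PHO1;2 (r = 0.85). No member was the closest to another member. Without the library that stood apart, an alternative chosen after seeing the data, these r were 0.72, 0.68, 0.48, 0.77, 0.72, 0.77 and 0.85 in the same order, and SPX1 alone kept the same closest transcript.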

How the data were processed

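The authors used Trimmomatic for trimming, HISAT2 for alignment and HTSeq for counting, and deposited raw, unnormalized counts per transcript in 1 table for each tissue and harvest. Versions are not given in the sources used here. Each table came in a pair with the same values, of which 1 was used, and its columns of fold changes and p-values from the authors' comparison were not used. The tables were joined into 36 libraries, with 0 for a transcript that a table does not list. The analysis used edgeR 4.0.16 in R 4.3.3 (TMM factors, filterByExpr, glmQLFit and glmQLFTest) and an adjusted p under 0.05 as the threshold. Zaxinone was compared with mock on the 6 libraries of a tissue and time, mock groups in 1 fit over 18 libraries, and differences of the zaxinone effect over 36. The standard error is the absolute log2 fold change divided by the square root of F. DESeq2 1.42.0, its size factors, other filters on low counts, the replicate block, wider fits, transcripts listed in all 6 tables, and each library left out were alternatives. Named were all members, the transcript most like each, and counts over the other phosphate loci. Members and lists were chosen with earlier results of these data known. Tested on simulated data, with 2-fold changes in 100 transcripts and 4-fold changes in another 100, edgeR recovered 54%, 80% and 3% of the 2-fold and 88%, 95% and 78% of the 4-fold changes in roots at 2, 6 and 24 h, and 86%, 76% and 81% and 97%, 95% and 99% in shoots. The lowest chi-square per degree of freedom between replicates was 5.07, so no 2 libraries agreed within sampling noise.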

Additional observations from a re-analysis of the deposited data

How the results depend on the processing

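No member was called under any of the 72 alternatives of the 6 zaxinone comparisons or the 90 of the 5 differences of the zaxinone effect. The shares of all transcripts called under these alternatives are not given here. The count of called members between mock roots and shoots stayed within 1.5 times that reported. Between 6 h and 2 h in mock roots it was 1 in place of 2 without a filter on low counts and with at least 10 counts in every library, a filter that removes SPX5, and between 1 and 2 with each library left out. Between 24 h and 2 h in mock roots it was 0 in place of 1 with at least 10 counts in every library, and between 1 and 2 with each library left out. Between 24 h and 2 h in mock shoots it was 1 in place of 2 without a filter and with the replicate block, where SPX4 had an adjusted p of 0.0535, and between 0 and 1 with each library left out. With 1 library left out, the 2 left in its group give the estimate. Where these counts moved for another reason than the removal of SPX5 or the loss of a library, the cause was not tested. The replicate block also brought SPX1 between mock roots and shoots at 6 h to an adjusted p of 0.0316 in edgeR. The samples were treated as unpaired, since the correlations of same-numbered mock and zaxinone libraries ran from -0.12 to 0.17 over 18 pairs, with 4 over 0.1. Of the 80 member results given only as ranges or intervals, 40 had another sign in some alternative, and none was called. At 24 h in roots, few 2-fold changes were recovered in simulated data, and SPX3 and SPX5 had at most 52 counts in any library, so changes of that size may have gone undetected in them.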
